A study of Homo sapiens with 36 samples.

Results

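The collagens are the family of triple-helical proteins that form the fibrils, networks and anchors of the extracellular matrix. Here they are all protein-coding genes whose symbol is COL, a number, A and a number. This rule found 44 chains among the 57771 genes of the count table, and expression did not enter it. The series holds 36 RNA-seq libraries of HepG2-IGF1R-KO cells: HepG2 is an established line from a human hepatoma, and IGF1R encodes a receptor for insulin-like growth factors. Every library is labelled as this knockout, and parental HepG2 was not analysed here. Whether the line is 1 clone is not given in the sources used here. The design crossed 2 media with 2 treatments in 4 groups of 9 libraries, which the labels call biological replicates. By their labels, cells spent 72 h in normal medium (DMEM with fetal bovine serum) or in insulin-resistant medium, which brought 20 mM glucose, 1 nM human insulin and a mixture of 3 fatty acids (oleic, linoleic and palmitic) at 0.5 mM. They were then left untreated or stimulated with 3 nM insulin for 18 h. Levels are given as CPM, a gene's counts as a share of the library total, scaled so that all genes sum to 1e6.

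A collagen molecule is a trimer of chains that are hydroxylated, glycosylated and folded in the endoplasmic reticulum before secretion. Fibrillar collagens such as types I, III and V are cut by propeptidases and crosslinked into fibrils, type IV forms the sheet of basement membranes, type VI forms beaded filaments, and the fibril-associated types decorate fibrils. In liver the fibrillar chains are known as products of stellate cells and fibroblasts and as the substance of fibrotic scar, whereas hepatocytes make little of them.

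Of the 36 libraries, 6 held almost no COL1A1, the chain that with COL1A2 forms type I collagen: insulin-stimulated replicates 4 to 6 in normal medium and untreated replicates 1 to 3 in insulin-resistant medium. COL1A1 stood at 0.784 to 1.7 CPM in these 6 and at 8071 to 31870.3 CPM in the other 30. The 20 genes of a stromal marker list had a sum of 386 to 457 CPM in the 6, and of 8428 to 24907 CPM in the others. In the 6, FAP, DCN and TWIST1, which mark fibroblast-like cells, were at 0 in each library, and CALD1, at a median of 262 CPM, gave more than any other member to the sum that was left. The labels name only a hepatocyte line. Its markers were present throughout: the 20-gene hepatocyte list had a sum of 14100.4 to 37345 CPM in the 30, and of 39024 to 45354 CPM in the 6. Library totals were 56388825 to 116763907 counts in the 30 and 26613307 to 66888551 counts in the 6. The targeted gene, IGF1R, lay between 78.2 and 134 CPM in the 30 and between 77.8 and 95.8 CPM in the 6. The 9 endothelial markers found summed to 8.13 to 24.4 CPM in the 30 and to 24.5 to 31.1 CPM in the 6. Of these, ESAM had the highest median in the 30, 8.63 CPM, and KDR had a median of 0. The 10 leukocyte markers summed to 343 to 1545 CPM in the 30 (in the 6, 732 to 2449 CPM). Of the leukocyte markers, LYZ (lysozyme) made up nearly all of this sum, at 314 to 1511 CPM among the 30 libraries (among the 6, 713 to 2422 CPM), CD68 lay at 14.8 to 44.2 CPM in the 30, and PTPRC, the pan-leukocyte one, did not exceed 0.433 CPM. Which exons the targeting removed is not given in the sources used here, so the IGF1R level does not check the genotype. In bulk libraries, fewer cells of a type and less RNA per cell cannot be told apart.

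Each chain was sorted by its median in the 6 libraries against its median in the other 30. A chain is called stromal here where the first is under 10% of the second, hepatoma where it is at least 50%, intermediate between these, and low where both medians are under 0.5 CPM. This sorting is a description with no test, since COL1A1 of the same libraries chose the 6. It gave 18 stromal, 8 hepatoma, 4 intermediate and 14 low chains. Collagen as a whole took 2.44% to 7.69% of all counts in the 30 libraries, of which COL1A1 and COL1A2 together made up 61.3% to 70.3%. In the 6 libraries collagen took 0.0884% to 0.132%, most of it from hepatoma chains, which summed to 745 to 1142 CPM there. The stromal chains summed to 47.1 to 89.4 CPM and the intermediate chains to 76 to 97.8 CPM.

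**Figure D1:**
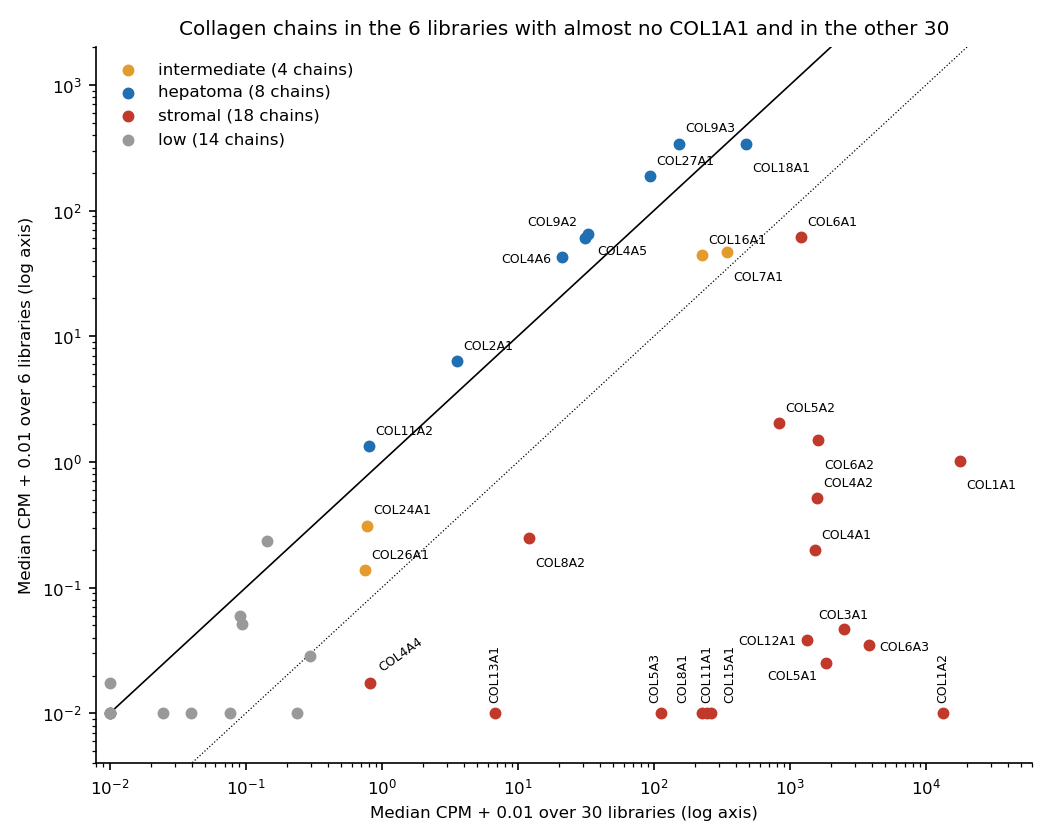
Median CPM of each of the 44 collagen chains over the 30 libraries (x) and over the 6 libraries with almost no COL1A1 (y), both on log axes after adding 0.01; the solid line marks equal levels, the dotted line 10%, and colours mark the classes. The 18 stromal chains lie below the dotted line at the right, and 7 of the 8 hepatoma chains lie above the solid line.

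The 6 chains of type IV collagen lie in the genome as head-to-head pairs, 2 genes transcribed away from each other from 1 shared stretch, and the sorting put the pairs in different classes. The stretches are printed because they set the genomic frame of that contrast. They come from RefSeq on GRCh38.p14, the plus strand, with CCAAT and GGGCGG, read on both strands, in capitals. COL4A1 (minus strand) and COL4A2 (plus strand), both stromal, start 126 bases apart on chromosome 13, and the whole stretch between the starts is chr13:110307158-110307283. COL4A6 (minus strand) and COL4A5 (plus strand), both hepatoma chains, start 379 bases apart on the X chromosome, and the 250 bases next to the COL4A5 start are chrX:108439588-108439837. COL4A4 (minus strand), stromal, and COL4A3 (plus strand), low, start 135 bases apart on chromosome 2, and the stretch is chr2:227164489-227164623.
COL4A1 and COL4A2: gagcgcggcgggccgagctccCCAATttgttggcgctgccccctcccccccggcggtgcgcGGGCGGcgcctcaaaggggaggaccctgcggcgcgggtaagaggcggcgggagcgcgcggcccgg
COL4A6 and COL4A5: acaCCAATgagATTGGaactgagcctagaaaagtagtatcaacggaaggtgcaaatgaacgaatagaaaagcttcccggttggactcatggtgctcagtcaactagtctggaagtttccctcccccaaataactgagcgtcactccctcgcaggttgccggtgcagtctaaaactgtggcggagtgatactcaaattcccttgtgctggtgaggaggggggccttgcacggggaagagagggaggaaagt
COL4A4 and COL4A3: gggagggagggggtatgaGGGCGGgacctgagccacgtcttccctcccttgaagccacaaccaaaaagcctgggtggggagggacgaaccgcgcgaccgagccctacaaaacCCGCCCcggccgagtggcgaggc
The first stretch held 1 CCAAT and 1 GGGCGG, the second 2 CCAAT and 0 GGGCGG, and the third 0 CCAAT and 2 GGGCGG, and TATAAA, searched on both strands, was in none of the 3. Of all 35116 RefSeq promoter windows, cut to the 250 bases before the start, 32% held CCAAT, 42.6% GGGCGG and 10.7% TATAAA. Promoter windows were matched by symbol for 32 of the 44 chains. Of 12 stromal chains with a window, 4 held CCAAT and 9 GGGCGG. Of 6 hepatoma chains with one, 3 held CCAAT and 5 GGGCGG. These stromal chains had 13 windows and these hepatoma chains 11. Counts by chain are therefore not a like measure to the shares of all windows. A match is a run of letters and not a measured binding site.

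Among the fibrillar chains, those of types I, III and V were stromal without exception. COL1A2 ran at 6808 to 17162 CPM in the 30 libraries and had a summed count of 2 in the 6. COL3A1, the single chain of type III, had a median of 2472 CPM in the 30 and 0.0365 CPM in the 6, and COL5A1, a chain of the type V collagen that starts fibrils, one of 1832 and 0.015 CPM. COL5A3, another type V chain, and COL11A1, of type XI, had medians of 113 and 246 CPM in the 30 and 0 in the 6. COL5A2 kept 2.03 CPM in the 6, which is 0.244% of its median of 833 CPM. The fibrillar chains that did not go with them were COL2A1 and COL11A2, known from cartilage, and COL27A1, all 3 hepatoma chains, and COL24A1, intermediate at 0.775 CPM in the 30 and 0.302 CPM in the 6.

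The type VI chains split in degree. COL6A3 had a median of 3779.9 CPM in the 30 and 0.0252 CPM in the 6, and COL6A2 one of 1598 and 1.48 CPM. COL6A1, their partner in the heterotrimer, kept 42.9 to 82 CPM in the 6, 5.11% of its median of 1203 CPM. COL6A1 is the stromal chain nearest to the 10% limit, and a limit of 5% would make it intermediate. The nearest intermediate chain is COL7A1, the anchoring fibril chain of skin, at 13.6% (46.8 against 345 CPM). COL16A1, a fibril-associated chain, and COL26A1 stood at 19.7% and 17.3%. COL24A1 stood at 39%, and the hepatoma chain nearest to the upper limit was COL18A1 at 71.5%.

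Of the network and associated chains, COL4A1 and COL4A2 had medians of 1516 and 1573 CPM in the 30 and of 0.189 and 0.506 CPM in the 6. The other stromal chains were COL12A1, a fibril-associated chain, at 1333 CPM in the 30, COL15A1, a basement membrane zone chain, at 265 CPM, COL8A1 and COL8A2, which form short-chain networks, at 224 and 12.1 CPM, the transmembrane chain COL13A1 at 6.77 CPM, and COL4A4 at 0.812 CPM. COL13A1 had a count of 0 in all 6 libraries, which allows up to 0.0449 to 0.113 CPM per library as the level of 3 counts, for counting error only.

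The 8 hepatoma chains were COL18A1, the precursor of endostatin, COL9A2 and COL9A3 of type IX, COL27A1, COL4A5, COL4A6, COL2A1 and COL11A2. Apart from COL18A1 their medians were 166% to 223% as high in the 6 as in the 30. The summed hepatocyte list moved in the same direction, with medians of 41929 CPM in the 6 and 19781 CPM in the 30. The medians in the 30 and in the 6 were 153 and 341 CPM for COL9A3, 94 and 189 CPM for COL27A1, and 32.8 and 64.7 CPM for COL9A2. They were 31 and 60.6 CPM for COL4A5, 21 and 43 CPM for COL4A6, 3.56 and 6.36 CPM for COL2A1, 0.798 and 1.32 CPM for COL11A2, and 477 and 341 CPM for COL18A1. COL9A1, the chain that completes the type IX trimer, had at most 3 counts in any of the 36 libraries.

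Per kilobase of the longest coding transcript, COL1A1 and COL1A2 stood at 2656 and 2444 CPM per kb as medians of the 30 libraries. COL6A2, COL3A1 and COL6A3 followed at 462, 446 and 352 CPM per kb. In the 6 libraries the order was headed by COL9A3 at 136 CPM per kb, with COL18A1 at 51.8, COL27A1 at 24.2 and COL9A2 at 22.6 CPM per kb behind it. The 14 low chains were COL14A1, COL10A1, COL17A1, COL21A1, COL28A1, COL4A3, COL25A1, COL23A1, COL19A1, COL20A1, COL22A1, COL9A1, COL6A5 and COL6A6. The most abundant of them, COL14A1, had 0.0546 to 1.6 CPM in the 30, and the last 6 of them had a median of 0 there. For the comparisons between groups, 35 chains passed the filter on low counts. The 9 that did not were low chains, namely COL4A3, COL25A1, COL23A1, COL19A1, COL20A1, COL22A1, COL9A1, COL6A5 and COL6A6. COL14A1, COL10A1, COL17A1, COL21A1 and COL28A1 were the low chains that passed.

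In the 30 libraries the stromal chains differed between triplets, a triplet being the replicates numbered 1 to 3, or 4 to 6, or 7 to 9 in their group, and the 10 triplets showed several profiles that cut across the 4 groups. The triplets are not groups of the study, and the values are given with no test. COL8A2 stood at 65.8 to 70 CPM in untreated replicates 7 to 9 in normal medium. It stood at 62.9 to 80.2 CPM in untreated replicates 7 to 9, at 62.3 to 68.8 CPM in insulin-stimulated replicates 4 to 6 and at 65.9 to 74 CPM in insulin-stimulated replicates 7 to 9 in resistant medium. In the other 6 triplets COL8A2 did not exceed 14.7 CPM. COL16A1 and COL5A1 were also highest in those 4 triplets, with COL5A1 at 2665 to 3833 CPM against at most 2478 CPM in the other libraries.

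A second profile held replicates 1 to 3 of both groups in normal medium. COL13A1 stood at 27.3 to 30.5 CPM in the untreated and 14.9 to 31.3 CPM in the insulin-stimulated triplet, against at most 11.5 CPM in the other 8 triplets. COL5A3 had 281 to 296 and 166 to 344 CPM in these 2 triplets. COL3A1 was lowest in one of them, the insulin-stimulated triplet, at 652 to 1346 CPM, and had 1128 to 1367 CPM in the untreated one. The remaining 4 triplets had COL4A1 at a low level: untreated replicates 4 to 6 in normal medium (384 to 461 CPM), insulin-stimulated replicates 7 to 9 in normal medium (294 to 564 CPM), untreated replicates 4 to 6 in resistant medium (323 to 348 CPM) and insulin-stimulated replicates 1 to 3 in resistant medium (454 to 592 CPM). All other libraries of the 30 had at least 854 CPM of COL4A1. Within these 4, COL5A3 separated the untreated triplet in normal medium (28.2 to 33.3 CPM) and the insulin-stimulated one in resistant medium (38.1 to 46.9 CPM) from the untreated one in resistant medium (88.1 to 94 CPM), with insulin-stimulated replicates 7 to 9 in normal medium spread from 47.1 to 128 CPM.

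The level of stromal markers as a whole also differed by triplet. The summed stromal list had a median of 9478 CPM in untreated replicates 4 to 6 and of 22743 CPM in untreated replicates 7 to 9 of the same normal medium. COL1A1 in the same triplets ran at 8071 to 9550.1 and 25773 to 28224 CPM. Insulin-stimulated replicate 2 in normal medium stood apart from its triplet, with 9747 CPM of COL1A1 where the other two had 19001 and 20495 CPM. That library also had the lowest stromal sum of the triplet, 8428 CPM, and is its only library of the 24 May batch. The other 24 May libraries among the 30 are untreated replicates 4 to 6 in normal and in resistant medium. Stromal sums ran from 8428 to 12505 CPM in the 24 May libraries, and were at least 14169 CPM in the rest of the 30. The part of a differing stromal content or of the batch date in these profiles was not tested.

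**Figure D2:**
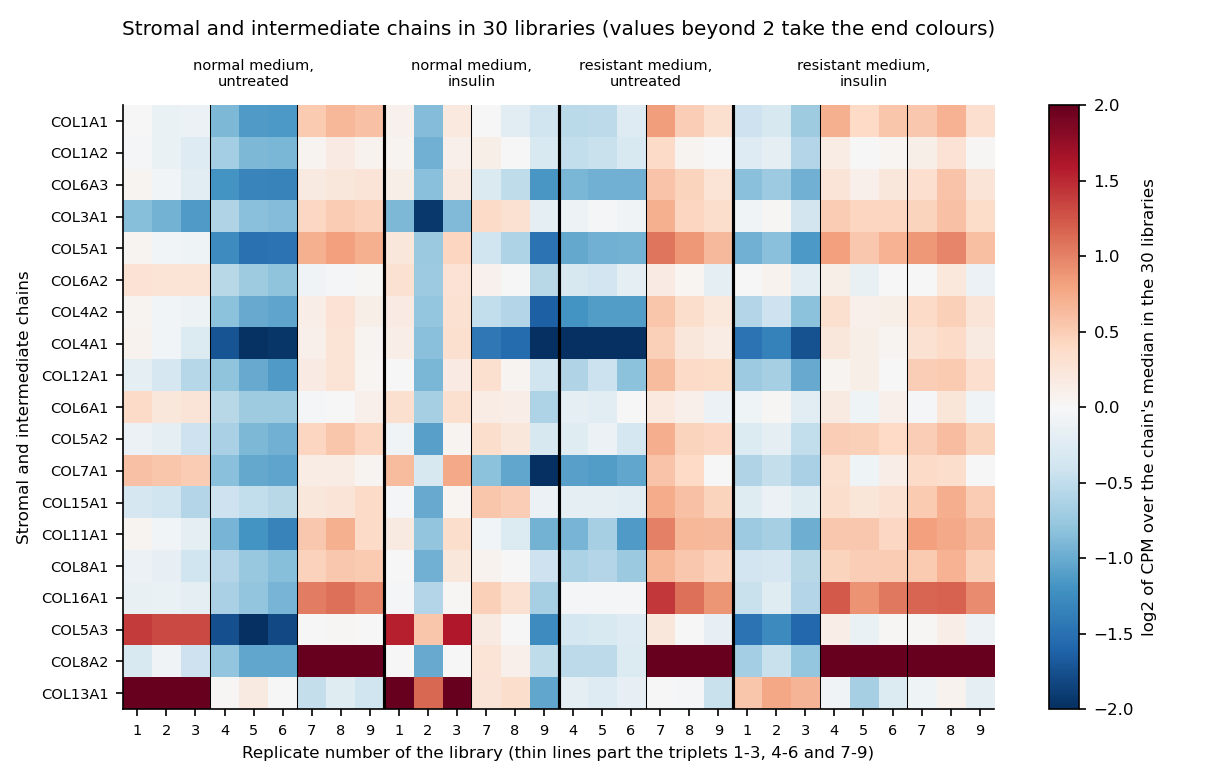
Each column is 1 of the 30 libraries, ordered by group and replicate, and each row 1 stromal or intermediate chain with a median of at least 5 CPM; colour gives the log2 of the CPM over the median of that chain in the 30 libraries, with values beyond 2 shown at the end colours. COL8A2 is red in 4 triplets, COL13A1 and COL5A3 in replicates 1 to 3 in normal medium, and COL4A1 is dark blue in 4 other triplets.

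The partners of 1 trimer or fibril moved with the triplet to different degrees. COL4A1 over COL4A2, the ratio of their counts, was 0.858 to 0.971 in untreated replicates 1 to 3 in normal medium and 0.489 to 0.517 in untreated replicates 4 to 6. By group it was 0.489 to 0.971 in untreated and 0.497 to 0.969 in insulin-stimulated cells in normal medium, and 0.448 to 0.921 and 0.502 to 0.973 in resistant medium. The 4 groups overlapped. COL5A1 over COL5A2 was 0.988 to 2.95 over the 30, and COL6A3 over COL6A1 1.62 to 4.09. COL1A1 over COL1A2, the partners in type I collagen, ran at 1.14 to 1.99, and at 0.921 to 1.6 after division by transcript length. The tightest ratio was COL6A1 over COL6A2, at 0.712 to 0.845.

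No chain ratio differed between groups past the threshold. In 24 two-sided exact permutation tests (6 ratios in the 4 pairwise comparisons, each between groups of 6 or 9 of the 30 libraries), Benjamini-Hochberg adjusted p was 0.376 or higher. The smallest exact p before adjustment, 0.016, belonged to COL6A1 over COL6A2 under insulin in resistant medium, where the log2 ratio differed by -0.087. COL1A1 over COL1A2 differed by 0.28 on the log2 scale between the media in insulin-stimulated cells (exact permutation p = 0.048, adjusted p = 0.384). On triplet means the design cannot go below an exact p of 0.1.

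For the comparisons between groups, edgeR's quasi-likelihood test was fitted to 18230 genes in the 30 libraries with the batch date as a covariate, and a chain passed where its Benjamini-Hochberg adjusted p was under 0.05. This left 9 libraries untreated and 6 stimulated in normal medium, and 6 untreated and 9 stimulated in resistant medium. Libraries of a triplet resemble one another. With each gene centred on its average over the 30 libraries, pairs within a triplet had a median correlation of 0.56. This centring leaves group effects in, and pairs from different triplets of the same group had a median of -0.038. The p-values therefore measure the spread between libraries and overstate the number of independent samples. The batch date is not spread evenly over the groups: untreated replicates 4 to 6 in resistant medium were all of the 24 May batch, and no stimulated library in resistant medium was. Fitted log2 fold changes with the batch term can therefore differ from those read off the groups' CPM levels. The 24 May libraries of the 30 were also those with the lowest stromal sums. Batch date and stromal content thus cannot be fully told apart in this fit. A second fit summed each triplet to 1 sample, which leaves 2 or 3 samples a group.

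The abundant stromal chains passed the test in none of the comparisons between the 4 groups, with COL15A1 as the exception below. COL1A1 ran at 8071 to 28224 CPM (median 16464) in normal medium without insulin (9 libraries) and 9747 to 20495 CPM (median 16491) with insulin (6 libraries). In resistant medium it ran at 12312 to 31870.3 CPM (median 18609) without insulin (6 libraries) and 10893 to 29168 CPM (median 23632) with insulin (9 libraries). All 4 groups overlapped. The log2 fold changes of COL1A1 were -0.22 (SE 0.22) for insulin in normal medium, -0.37 (SE 0.26) for insulin in resistant medium, 0.41 (SE 0.22) for the medium in untreated cells and 0.26 (SE 0.25) for the medium in insulin-stimulated cells, with adjusted p between 0.184 and 0.929 in edgeR. The value for insulin in resistant medium has the opposite sign to the groups' own medians, and without a batch term it was 0.15. COL1A2 ran at 7050.2 to 14847 CPM (median 12065) in normal medium without insulin (9 libraries) and 6808 to 14326 CPM (median 13526) with insulin (6 libraries). In resistant medium it ran at 9447 to 17162 CPM (median 11886) without insulin (6 libraries) and 8846 to 16105 CPM (median 13451) with insulin (9 libraries). Its adjusted p lay between 0.105 and 0.97, with the smallest for the medium in untreated cells (log2 fold change 0.28, SE 0.13). Scaled to the hepatocyte marker list instead, COL1A1 was higher by 1.01 and COL1A2 by 0.88 in resistant medium in untreated cells, and both passed, as did COL1A2 under insulin in normal medium (0.40). On that scale the median of all genes stood at 0.57 for the medium in untreated cells, where 77.2% of all genes passed. For insulin in normal medium it stood at 0.40, where 63.2% passed. In the triplet-summed fit neither COL1A1 nor COL1A2 passed in any comparison. Without untreated replicates 7 to 9 in normal medium, or without insulin-stimulated replicates 1 to 3 in resistant medium, both passed as higher in resistant medium in untreated cells, with log2 fold changes of at most 0.67 for COL1A1 and 0.41 for COL1A2, and COL1A1 without the latter triplet also in stimulated cells (0.71).

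The other stromal and intermediate chains with a mean of at least 100 CPM had the following group medians, each in the order untreated and insulin-stimulated in normal medium, then untreated and insulin-stimulated in resistant medium. COL6A3 had 3638, 2871, 3285 and 4442 CPM, COL6A2 1573, 1654, 1408 and 1601 CPM and COL6A1 1213, 1325, 1153 and 1187 CPM. COL3A1 had 1378, 1762, 2799 and 3341 CPM, COL5A1 1770.4, 1291, 1912 and 2789.6 CPM, COL5A2 728, 833, 938 and 1131 CPM, COL5A3 113, 147, 97.5 and 106 CPM and COL11A1 238, 219.6, 270.4 and 357 CPM. The medians of COL3A1 were higher in resistant medium, but its libraries in normal medium spread from 652 to 3509 CPM and reached into both resistant groups. COL4A1 had 1463, 709, 1013 and 1649.6 CPM and COL4A2 1514, 1080.2, 1274 and 1703 CPM. COL12A1 had 1061, 1353, 1357 and 1379.8 CPM, COL8A1 201, 224, 230.2 and 313 CPM, COL7A1 382, 236, 259 and 342 CPM and COL16A1 203, 224, 316 and 434 CPM. None of these chains passed in any of the 5 comparisons in edgeR. The summed stromal list had group medians of 15446, 16839.6, 16762 and 22080.2 CPM in the same order.

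In the fit to the 30 libraries, insulin in normal medium was followed by lower levels of most hepatoma chains. Of 35 chains, 8 passed (1 higher, 7 lower) where 33.4% of all genes did (15.4% higher, 18.1% lower). Of the 8 hepatoma chains 7 fell, and the 1 chain that rose was COL14A1 of the low class. The median log2 fold change was -0.43 over the hepatoma chains and -0.15 over the stromal chains, beside -0.011 over all genes. With triplets summed or with all 36 libraries no chain passed, as given below.

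COL9A2 ran at 32.8 to 72.3 CPM (median 41.2) in untreated and 19.7 to 39.3 CPM (median 22.7) in insulin-stimulated cells. Of the 6 stimulated libraries, 5 lay below every untreated one, and replicate 2 lay among them. In edgeR its log2 fold change was -0.68 (SE 0.086, adjusted p = 3.60e-07). COL27A1 went from 98.6 to 179 CPM (median 129) to 67.4 to 121 CPM (median 86.2), with overlap (log2 fold change -0.48, SE 0.068, adjusted p = 2.56e-06 in edgeR). COL2A1, which encodes the only chain of type II collagen, ran at 5.63 to 15.2 CPM (median 9.18) in untreated and 3.22 to 6.69 CPM (median 4.99) in stimulated cells (log2 fold change -0.78, SE 0.14, adjusted p = 9.51e-05 in edgeR). The groups overlapped between 5.63 and 6.69 CPM.

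COL4A5 stood at 29.5 to 49.8 CPM (median 38.8) and 20.7 to 36.3 CPM (median 28.9) (log2 fold change -0.38, SE 0.078, adjusted p = 3.17e-04 in edgeR), and its neighbour COL4A6 at 17.8 to 30.6 CPM (median 22.9) and 11.8 to 26.6 CPM (median 16.1) (log2 fold change -0.36, SE 0.084, adjusted p = 0.00128). Both pairs of ranges overlapped. COL9A3 stood at 149 to 338 CPM (median 182) and 104 to 233 CPM (median 127) (log2 fold change -0.40, SE 0.082, adjusted p = 3.53e-04 in edgeR). COL11A2, at 0.392 to 1.1 CPM (median 0.734) and 0.248 to 0.671 CPM (median 0.516), passed narrowly (adjusted p = 0.0474 in edgeR), and its call was lost on leaving out any of 21 of the 30 single libraries, with adjusted p up to 0.15. Leaving out any of 8 of the 10 triplets also ended the call (adjusted p up to 0.661 in edgeR). COL18A1, the hepatoma chain that did not pass, stood at 419 to 793 CPM (median 578) and 267 to 754 CPM (median 484) (log2 fold change -0.20, adjusted p = 0.371).

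COL14A1 rose by 1.54 on the log2 scale (adjusted p = 0.0253 in edgeR), from 0.139 to 0.497 CPM (median 0.314) to 0.116 to 1.6 CPM (median 0.663). The higher values are those of replicates 7 to 9, at 1.12 to 1.6 CPM, while replicates 1 to 3 had 0.116 to 0.209 CPM. Without replicates 7 to 9 its log2 fold change was -0.81, in the other direction and not past the threshold.

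Hepatocyte markers moved with these chains: 13 of 20 were lower under insulin in normal medium and 0 higher, and their summed CPM was 21844 to 37345 in untreated and 16232 to 28796 in stimulated cells. The stromal list ran at 8778 to 23026 and 8428 to 17909 CPM. Scaled to the hepatocyte list, the median of all genes stood at 0.40 on the log2 scale. On that scale COL9A2 (-0.27) and COL2A1 (-0.36) still passed as lower, where 63.2% of all genes passed. COL9A3, COL4A5 and COL4A6 stood at 0.014, 0.027 and 0.044 there and did not pass. In the triplet-summed fit 0 chains passed, where 5.28% of all genes did, and COL9A2 stood at -0.73 (adjusted p = 0.134 in edgeR). With all 36 libraries 0 chains passed as well (35.2% of all genes), and COL9A2 stood at -0.24. With the triplet as a random block in limma COL9A2 and COL27A1 passed, where 12.6% of all genes did.

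Insulin in insulin-resistant medium was followed by no called change in any collagen chain. Of 35 chains 0 passed, as did 0% of all genes in edgeR and 0 chains in DESeq2, and 0 chains had an unadjusted p under 0.05, against 964 of all genes. COL2A1 ran at 1.73 to 3.68 CPM (median 2.72) in untreated and 1.51 to 2.31 CPM (median 1.92) in stimulated cells. Its untreated values fall into 2 triplets, at 3.23 to 3.68 CPM in replicates 4 to 6 and 1.73 to 2.2 CPM in replicates 7 to 9, and the second overlaps the stimulated libraries. COL9A2 ran at 25.6 to 53.2 CPM (median 41.2) and 25.9 to 34.3 CPM (median 29.3), COL27A1 at 77.5 to 143 CPM (median 117) and 70.2 to 93.2 CPM (median 84.3), and COL9A3 at 125 to 276 CPM (median 205) and 121 to 159.5 CPM (median 139). All 9 stimulated libraries lay within the span of the untreated ones for COL9A2, and 8 of 9 did for COL27A1 and for COL9A3. COL4A5 ran at 24.1 to 48.2 CPM (median 35.2) and 25.4 to 34.2 CPM (median 30.2), COL4A6 at 16.6 to 33.3 CPM (median 23) and 18.1 to 22.1 CPM (median 20.9), COL11A2 at 0.739 to 1.43 CPM (median 0.977) and 0.67 to 1.08 CPM (median 0.88), and COL18A1 at 396 to 574 CPM (median 471) and 375 to 587 CPM (median 442). The median log2 fold change was -0.023 over the hepatoma chains, with a range of -0.11 to 0.064, and -0.38 over the stromal chains. These fitted values depend on the batch term: without it the medians were -0.31 over the hepatoma chains, with a range of -0.48 to -0.039, and 0.14 over the stromal chains, and 0 chains passed. COL9A2, for one, stood at -0.42 without a batch term and at -0.10 with it.

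Insulin-resistant medium in untreated cells went with a much lower level of COL2A1. Of 35 chains 6 passed (2 higher, 4 lower), where 26.7% of all genes did (10.7% higher, 16% lower). COL2A1 stood at 5.63 to 15.2 CPM (median 9.18) in normal and 1.73 to 3.68 CPM (median 2.72) in resistant medium, and every library in resistant medium lay below every one in normal medium. In edgeR its log2 fold change was -1.94 (SE 0.15, adjusted p = 5.16e-11), which is 3.83-fold lower. The log2 fold change was -2.18 within the 22 April batch, -1.44 within the 11 April batch and -1.91 within the 24 May batch, past the threshold in each, and no library or triplet left out ended the call. It was the 1 chain that passed in the triplet-summed fit (-1.80, adjusted p = 0.0155 in edgeR), where 2.94% of all genes did. With all 36 libraries COL2A1 (-1.63) and COL11A2 (0.85) were the chains that passed, where 21.9% of all genes did.

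COL11A2, whose chain forms type XI collagen in cartilage, rose: it stood at 0.392 to 1.1 CPM (median 0.734) in normal and 0.739 to 1.43 CPM (median 0.977) in resistant medium (log2 fold change 0.52, SE 0.17, adjusted p = 0.0237 in edgeR), with overlap. Its call was lost without untreated replicate 5, 6 or 8 in resistant medium, with adjusted p up to 0.0595, or on leaving out either triplet of that group or untreated replicates 4 to 6 or 7 to 9 in normal medium (up to 0.183 in edgeR). COL27A1 fell, from 98.6 to 179 CPM (median 129) to 77.5 to 143 CPM (median 117) (log2 fold change -0.32, SE 0.068, adjusted p = 6.34e-04), and its untreated libraries in resistant medium fell into replicates 4 to 6 at 141 to 143 CPM and replicates 7 to 9 at 77.5 to 93.4 CPM. COL9A2 stood at 32.8 to 72.3 CPM (median 41.2) in normal and 25.6 to 53.2 CPM (median 41.2) in resistant medium, so that the medians were equal, and COL4A5 at 29.5 to 49.8 CPM (median 38.8) and 24.1 to 48.2 CPM (median 35.2). With the batch term both passed as lower, COL9A2 at -0.28 and COL4A5 at -0.22 on the log2 scale (adjusted p = 0.0138 and 0.0415 in edgeR). The call of COL9A2 was lost without untreated replicate 7 in resistant medium (adjusted p = 0.0538) and without untreated replicates 4 to 6 or 7 to 9 there (adjusted p up to 0.191 in edgeR), and that of COL27A1 without untreated replicates 7 to 9 there (adjusted p = 0.0615 in edgeR). The call of COL4A5 was lost on leaving out untreated replicate 1, 3, 4, 7 or 9 or insulin-stimulated replicate 3 in normal medium, or untreated replicate 6, 7, 8 or 9 in resistant medium (adjusted p up to 0.155 in edgeR). Leaving out any of 4 of the 10 triplets also ended that call (adjusted p up to 0.654 in edgeR). Without a batch term COL2A1 and COL11A2 were the 2 chains that passed instead of 6, where 21.3% of all genes did, and COL9A2, COL4A5 and COL27A1 stood at -0.18, -0.13 and -0.23. COL15A1 was the only stromal chain that passed in any comparison of the fit with the batch term. It stood at 176 to 344 CPM (median 201) in normal and 228 to 441 CPM (median 298) in resistant medium, with overlap (log2 fold change 0.51, SE 0.18, adjusted p = 0.0392 in edgeR), and its call was lost without untreated replicate 1, 2 or 3 in normal medium or untreated replicate 4, 5, 6, 7 or 8 in resistant medium (adjusted p up to 0.115). The call of COL15A1 was also lost on leaving out any of 4 of the 10 triplets (adjusted p up to 0.356 in edgeR).

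The direction of the smaller changes depended on what the levels were set against. Of the 20 hepatocyte markers 14 were lower in resistant medium in untreated cells, with a median log2 fold change of -0.48, and their sum ran at 21844 to 37345 CPM in normal and 14100.4 to 25789 CPM in resistant medium. Scaled to them, the median of all genes stood at 0.57 on the log2 scale. On that scale COL9A2, COL4A5 and COL27A1 stood higher in resistant medium, by 0.32, 0.38 and 0.27, in place of lower, and relative to the median of all genes they still stood at -0.25, -0.19 and -0.30. COL2A1 was lower on either scale (-1.34 when scaled to hepatocyte markers), and COL11A2 was higher on either (1.12). Of the 35 chains 27 passed on the hepatocyte scale, where 77.2% of all genes did, among them 15 stromal chains, all of these higher in resistant medium. Of the 18230 genes tested, 13721 passed as higher and 356 as lower on that scale.

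Insulin-resistant medium in insulin-stimulated cells also went with lower COL2A1 and higher COL11A2. Of 35 chains 5 passed (3 higher, 2 lower), where 36% of all genes did (17.8% higher, 18.2% lower). COL2A1 stood at 3.22 to 6.69 CPM (median 4.99) in normal and 1.51 to 2.31 CPM (median 1.92) in resistant medium, without overlap. In edgeR its log2 fold change was -1.28 (SE 0.16, adjusted p = 2.55e-07), and it was the 1 chain that passed in the triplet-summed fit too (-1.42, adjusted p = 0.0275), where 4.45% of all genes did. COL11A2 stood at 0.248 to 0.671 CPM (median 0.516) in normal and 0.67 to 1.08 CPM (median 0.88) in resistant medium, and the highest library of the former lay at the level of the lowest of the latter. In edgeR its log2 fold change was 1.03 (SE 0.20, adjusted p = 1.42e-04).

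COL4A6 rose by 0.33 and COL9A2 by 0.30 on the log2 scale in resistant medium under insulin (adjusted p = 0.00509 and 0.0111 in edgeR). With all 36 libraries, where 38.3% of all genes passed, both stood lower in resistant medium, at -0.15 and -0.21, and did not pass, and COL9A2 was not called without insulin-stimulated replicates 1 to 3 in normal medium (adjusted p = 0.0694). The CPM ranges overlapped, at 11.8 to 26.6 CPM (median 16.1) against 18.1 to 22.1 CPM (median 20.9) for COL4A6 and at 19.7 to 39.3 CPM (median 22.7) against 25.9 to 34.3 CPM (median 29.3) for COL9A2. Without a batch term COL9A2 stood at 0.18 and COL4A6 at 0.24, and neither passed. COL14A1 fell by 1.55 (adjusted p = 0.0232 in edgeR), which rested on insulin-stimulated replicates 7 to 9 in normal medium: without them it stood at 0.92 on the log2 scale and did not pass. The median log2 fold change was 0.17 over the hepatoma chains and 0.13 over the stromal chains. The comparisons share groups: the 2 media comparisons use the same libraries as the 2 insulin comparisons, so their values are not independent of each other.

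**Figure D3:**
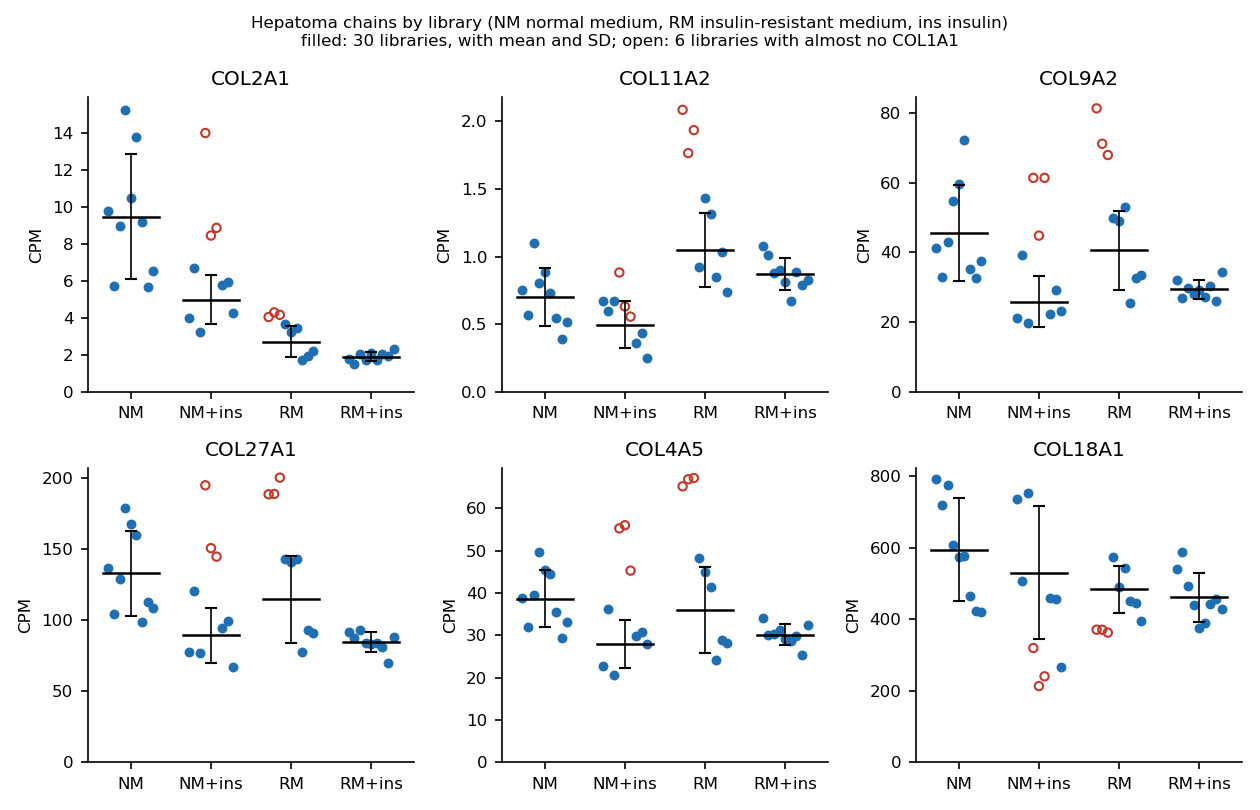
CPM of 6 hepatoma chains in each of the 36 libraries by group (NM, normal medium; RM, insulin-resistant medium; ins, insulin), with filled points for the 30 libraries, their mean and SD, and open points for the 6 libraries with almost no COL1A1. COL2A1 lies below 4 CPM in all filled points in resistant medium and above it in all but 1 in normal medium, and open points of COL9A2, COL27A1 and COL4A5 lie above the filled points of their group.

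The medium by insulin interaction, that is the insulin effect in resistant medium minus that in normal medium, passed for 6 of 35 chains (5 positive, 1 negative), where 21.8% of all genes did (12.4% higher, 9.37% lower). The 5 positive ones were hepatoma chains that fell under insulin in normal medium and whose log2 fold changes in resistant medium were closer to 0 in the fit with the batch term. Without that term COL14A1 was the 1 chain that passed instead of 6, where 15.9% of all genes did, and in resistant medium COL9A2 stood at -0.42 and COL27A1 at -0.39 (interaction 0.36 and 0.15, adjusted p = 0.291 and 0.635 in edgeR). With the term, COL9A2 had -0.68 in normal and -0.10 in resistant medium (interaction 0.58, SE 0.13, adjusted p = 0.00109 in edgeR). COL27A1 had -0.48 and -0.10 (interaction 0.38, SE 0.10, adjusted p = 0.00688). COL4A5 had -0.38 and 0.030 (interaction 0.41, SE 0.12, adjusted p = 0.0105), and COL4A6 -0.36 and 0.064 (interaction 0.42, SE 0.12, adjusted p = 0.0147). COL2A1 had -0.78 and -0.11 (interaction 0.66, SE 0.21, adjusted p = 0.0252). The negative one was COL14A1, at -2.31 (SE 0.75, adjusted p = 0.0269). The call of COL2A1 was lost without stimulated replicate 3 or 9 in normal medium (adjusted p up to 0.0591 in edgeR) and on leaving out 5 of the 10 triplets. Those of COL27A1, COL4A6 and COL4A5 were lost without untreated replicates 7 to 9 in resistant medium, and that of COL4A5 also without stimulated replicates 1 to 3 in normal medium (adjusted p up to 0.0879, 0.139 and 0.233 in edgeR). That of COL14A1 was lost without stimulated replicate 7 or 9 in normal medium or untreated replicate 4 in resistant medium, and on leaving out 6 of the 10 triplets. The hepatocyte markers again moved alike, with 9 of 20 positive and 0 negative. In the triplet-summed fit 0 chains passed, where 0.366% of all genes did. With all 36 libraries 0 passed (29.8% of all genes) and the 5 hepatoma chains stood at negative values, at -0.34 for COL9A2, -0.34 for COL27A1, -0.36 for COL4A5, -0.49 for COL4A6 and -0.080 for COL2A1. Scaled to hepatocyte markers COL9A2 (0.21) was the only hepatoma chain that passed, where 41.4% of all genes did.

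**Figure D4:**
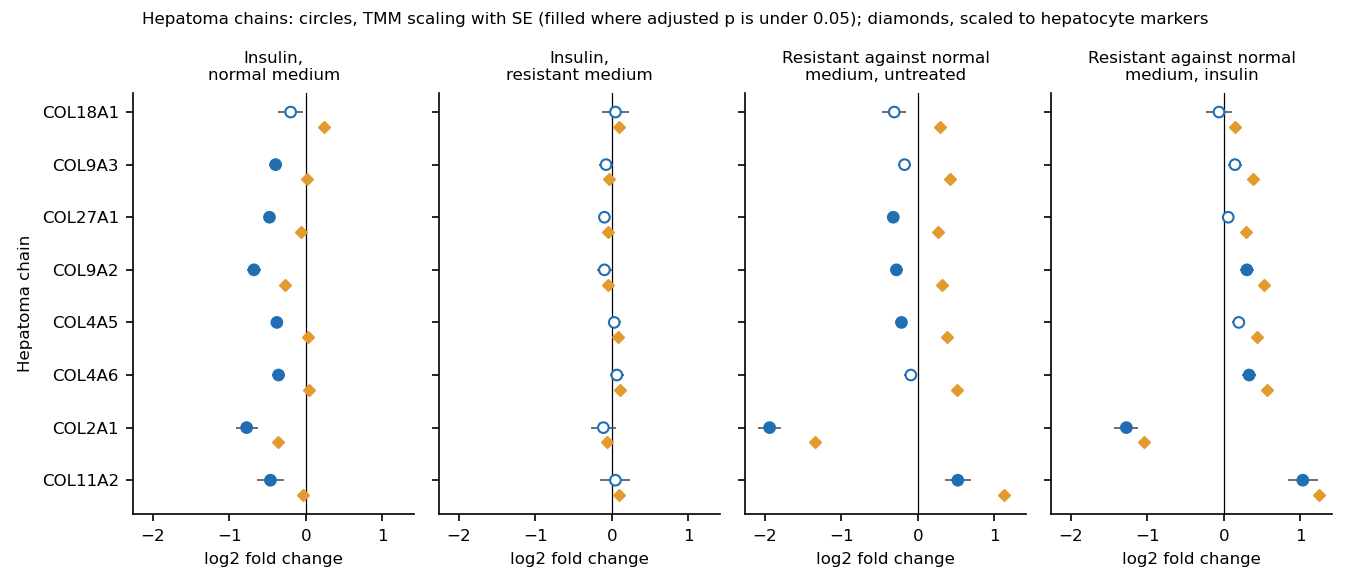
Log2 fold changes of the 8 hepatoma chains in the 4 pairwise comparisons in 30 libraries, as circles with SE under the main scaling, filled where the adjusted p is under 0.05, and as diamonds when libraries are scaled to hepatocyte markers. COL2A1 is left of 0 and COL11A2 right of 0 in both media comparisons under either scaling, while the other chains shift across 0 in untreated cells.

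Dividing each library's CPM by its own hepatocyte marker level, the geometric mean of 19 markers relative to the mean of all libraries, allowed the hepatoma chains to be read in all 36 libraries, the 6 included. COL2A1 then stood at 5.34 to 10.8 in untreated and 4.87 to 7.2 in stimulated cells in normal medium, and at 2.38 to 3.45 and 2.15 to 3.13 in resistant medium, so that both groups of a medium lay apart from both of the other. COL11A2 stood at 0.403 to 0.917, 0.287 to 1.02, 0.864 to 1.46 and 0.955 to 1.52 in the same order, with overlap. The 6 libraries lay within the span of the other libraries of their medium for COL11A2, and within or at the edge of it for COL2A1. COL4A6 stood at 15.6 to 21.6 and 17.9 to 21.9 in normal and at 22.6 to 31.2 and 26.7 to 31 in resistant medium, without overlap between media, and COL9A3 at 141 to 197 and 139 to 192 against 202 to 256 and 185 to 224. How many of all genes lay apart likewise is not given here. In the fit with this scaling below, the median of all genes was itself higher in resistant medium. COL18A1 was spread most widely, from 126 to 1143 among stimulated libraries in normal medium. For this chain the 6 libraries stood below all others, at 126 to 165 in normal and 216 to 220 in resistant medium. The lowest of the other 30 libraries stood at 309. Its class of hepatoma chain rests on CPM, where its median in the 6 was 71.5% of that in the 30. Which cells made it was not tested.

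In an edgeR fit to all 36 libraries with this scaling, chosen after the data were seen, the medium in untreated cells gave -1.41 for COL2A1, 1.07 for COL11A2, 0.53 for COL4A6, 0.43 for COL9A3, 0.35 for COL4A5, 0.32 for COL9A2 and 0.21 for COL27A1 on the log2 scale, and these 7 of the 8 hepatoma chains passed, with 0 of the 18 stromal chains, where 27.6% of all genes did. The median of all genes stood at 0.29 on that scale. In stimulated cells the same 7 chains passed with the same signs, at -1.01 for COL2A1 and 1.42 for COL11A2, beside a median of all genes of 0.56 and 48.7% of all genes called. Insulin in normal medium gave -0.26 for COL9A2 and -0.37 for COL2A1, the 2 chains that passed there, where 23.6% of all genes did. With each of the 12 triplets summed, COL2A1, COL11A2 and COL4A6 passed in untreated and COL2A1, COL11A2, COL4A6, COL9A2 and COL4A5 in stimulated cells, where 7.21% and 9.13% of all genes did. The scaling takes the hepatocyte markers as fixed between media, which was not tested, and a change of these markers themselves cannot be told apart from a change of the chains in the other direction.

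**Figure D5:**
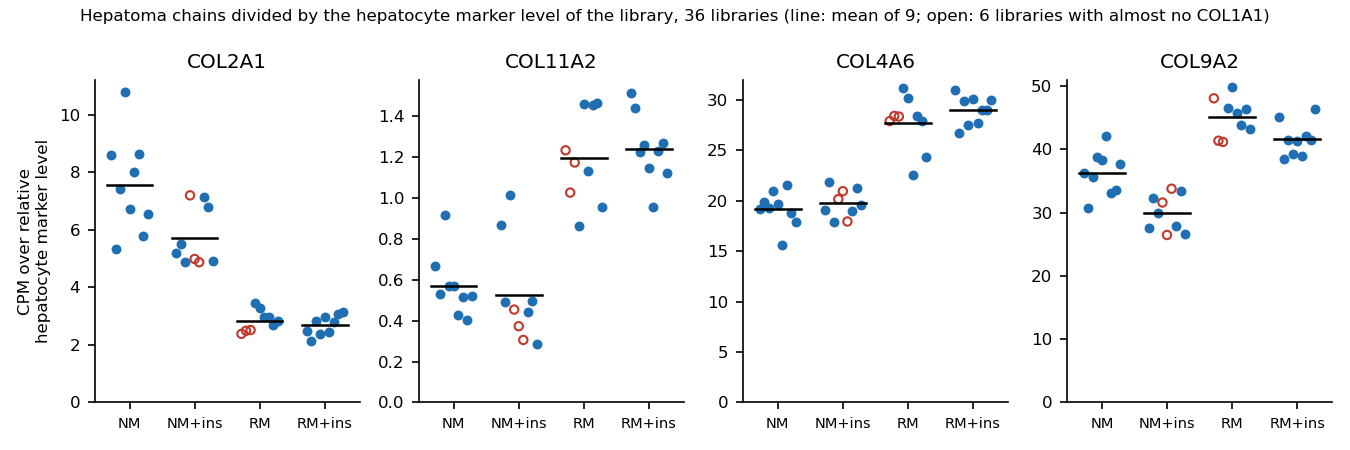
CPM of 4 hepatoma chains divided by the relative hepatocyte marker level of the same library, in all 36 libraries by group (NM, normal medium; RM, insulin-resistant medium; ins, insulin); the line is the mean of 9 libraries and open points are the 6 libraries with almost no COL1A1. COL2A1 lies lower and COL4A6 higher in resistant medium, with no overlap between the media. In the fit with this scaling the median of all genes was also higher in resistant medium. Its log2 fold change was 0.29 in untreated and 0.56 in stimulated cells.

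The 43 genes of a list of collagen synthesis, covering prolyl and lysyl hydroxylation, chaperones and export, propeptide removal, crosslinking and receptors, were all tested. Under insulin in normal medium 5 rose and 2 fell, with a median log2 fold change of -0.051. Under insulin in resistant medium 0 passed in edgeR. Resistant medium in untreated cells went with 6 higher and 2 lower (median 0.15), and in stimulated cells with 2 higher and 7 lower (median -0.0087). The interaction passed for 5 genes. In each of these 4 comparisons with calls the share of the list lies below that of all genes given above.

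Among the genes of secretion, MIA2 and MIA3 (TANGO1), receptors that load bulky cargo such as procollagen at exit sites of the endoplasmic reticulum, rose under insulin in normal medium (MIA2 log2 fold change 0.55, adjusted p = 3.66e-06, MIA3 log2 fold change 0.43, adjusted p = 3.17e-06 in edgeR). Both stood lower in resistant medium in stimulated cells (MIA2 log2 fold change -0.66, adjusted p = 9.58e-07, MIA3 log2 fold change -0.40, adjusted p = 3.53e-05), and for both the interaction passed (MIA2 -0.59, MIA3 -0.49). MIA2 also passed in the triplet-summed fit under insulin in normal medium (adjusted p = 0.0373) and in resistant medium in stimulated cells (adjusted p = 0.0263 in edgeR). MIA3 did not pass there in either comparison (adjusted p = 0.0676 and 0.175), and neither interaction did (adjusted p = 0.211 for MIA2 and 0.38 for MIA3 in edgeR). In the 6 libraries MIA2 had a median of 89.8 against 44.4 CPM in the 30, and MIA3 one of 92.6 against 74.5 CPM. SERPINH1 (HSP47), the collagen-specific chaperone, rose in resistant medium in untreated cells (log2 fold change 0.48, adjusted p = 0.0334 in edgeR), and TMEM38B, an ion channel of the endoplasmic reticulum, fell (log2 fold change -0.33, adjusted p = 0.0401). In the triplet-summed fit neither passed (adjusted p = 0.873 and 0.746 in edgeR).

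Of the modifying and crosslinking enzymes, COLGALT2, a collagen galactosyltransferase, rose under insulin in normal medium (log2 fold change 0.26, adjusted p = 0.0302 in edgeR) and in resistant medium in untreated cells (log2 fold change 0.56, adjusted p = 2.45e-05). The crosslinking oxidases LOXL4 and LOXL1 rose in resistant medium in untreated cells (LOXL4 log2 fold change 0.83, adjusted p = 0.0225, LOXL1 log2 fold change 0.39, adjusted p = 0.0317 in edgeR). LOXL1 had 0.355 against 82.3 CPM in the 6 and the 30 libraries, and LOXL4 53.1 against 167 CPM. P3H2, a prolyl hydroxylase, and PPIB (cyclophilin B) fell in resistant medium in stimulated cells (P3H2 log2 fold change -2.12, adjusted p = 0.00664, PPIB log2 fold change -0.29, adjusted p = 0.0257 in edgeR), and P3H2 was at a median of 0 in the 6 libraries. In the triplet-summed fit none of these 5 genes passed in these comparisons, with adjusted p of 0.436 and 0.0716 for COLGALT2, 0.768 for LOXL4, 0.839 for LOXL1, 0.415 for P3H2 and 0.639 for PPIB in edgeR.

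PCOLCE2, an enhancer of procollagen C-proteinase, fell under insulin in normal medium (log2 fold change -0.40, adjusted p = 1.10e-04 in edgeR), in resistant medium in untreated cells (log2 fold change -0.61, adjusted p = 3.13e-07) and in stimulated cells (log2 fold change -0.28, adjusted p = 0.00592), and its interaction was positive (0.33). ADAMTS3, a procollagen N-proteinase at 0.535 CPM, rose under insulin in normal medium (log2 fold change 0.83, adjusted p = 0.029) and fell in resistant medium in stimulated cells (log2 fold change -1.38, adjusted p = 0.00229 in edgeR), with an interaction of -2.09. DDR1, a receptor tyrosine kinase for collagen, fell under insulin in normal medium (log2 fold change -0.29, adjusted p = 0.00119 in edgeR) and rose in resistant medium in untreated (log2 fold change 0.39, adjusted p = 3.47e-05) and in stimulated cells (log2 fold change 0.68, adjusted p = 2.23e-08), and its interaction was 0.29. Of the integrin chains, ITGA2 rose under insulin in normal medium (log2 fold change 0.54, adjusted p = 0.0112 in edgeR), ITGA10 rose in resistant medium in untreated (log2 fold change 0.58, adjusted p = 0.0383) and stimulated cells (log2 fold change 0.94, adjusted p = 0.00199), and ITGA1 fell in the latter (log2 fold change -0.44, adjusted p = 0.033). In the triplet-summed fit none of the genes in this paragraph passed.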

How the data were processed

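Poly-A RNA of 36 libraries was sequenced with a strand-specific kit, per the labels' protocols. The authors deposited 1 table of estimated counts per Ensembl gene, not scaled to a common total, for which STAR, Salmon and GRCh37 are named in the submitters' processing notes. Of its values 15.5% are not whole. No source used here gives versions, annotation or the use of strand, so reads of chains that overlap antisense genes may be shared. Counts were rounded, and symbols were matched from gene tables for 90% of genes. Libraries were grouped by title. The 6 libraries with COL1A1 under 10 CPM were left out of the tests and kept for description. edgeR 4.0.16 (TMM, filterByExpr, robust quasi-likelihood test, group and batch date) was run in R 4.3.3 on 18230 genes, and p-values were adjusted by the Benjamini-Hochberg method over all of them. The script was tested on simulated data. limma 3.58.1 and DESeq2 1.42.0 gave alternatives. Alternatives also changed scaling, filters, batch terms and libraries. Every chain is accounted for. Chains with a mean of at least 100 CPM and hepatoma chains are given by group, called chains are named, and up to 4 called synthesis genes per role. Transcript lengths come from GENCODE v29. Members and lists were chosen with earlier results of these data known.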

Additional observations from a re-analysis of the deposited data

Results flagged for a closer look

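COL9A3 stood at 233 CPM in insulin-stimulated replicate 2 in normal medium, far above the other 5 libraries of that group among the 30. The same library had the lowest COL1A1 of its triplet, and it is the only 24 May library of the 6. Its hepatocyte markers were higher too: their level relative to the geometric mean of all 36 libraries was 1.21, against 0.66 to 0.872 in the other 5. Divided by that level, COL9A3 was 192 CPM against 149 to 172 CPM. What part the markers or the batch have in the gap was not tested. Chance gives such a gap in about 1 group in 20, and 124 combinations of a group and a measure were looked at, of which 1 stood out.

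For 6 chains the effect of insulin differed between the media in the interaction test of edgeR. The difference of the log2 fold changes, resistant minus normal medium, was 0.58 for COL9A2, 0.66 for COL2A1, 0.41 for COL4A5, 0.38 for COL27A1, 0.42 for COL4A6 and -2.31 for COL14A1. The value of COL14A1 rested on stimulated replicates 7 to 9 in normal medium. For the other 5 the sign changed with all 36 libraries, and in the triplet-summed fit 0 of the 6 passed. Without a batch term only COL14A1 passed. The hepatocyte markers moved with them, and their part in the difference was not tested.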

How the results depend on the processing

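Counts of called chains below follow the order insulin in normal medium, medium in untreated cells, medium in insulin-stimulated cells and interaction, beside 8, 6, 5 and 6. They were 0, 2, 2 and 0 with all 36 libraries, 0, 1, 1 and 0 with triplets summed, 2, 1, 2 and 0 with the triplet as a random block, 5, 7, 3 and 3 scaled to stromal markers, and 0, 0, 0 and 0 with that scaling on summed triplets. Scaled to hepatocyte markers they were 10, 27, 8 and 7 in the 30, 2, 8, 8 and 0 in all 36, and 0, 3, 5 and 0 in 12 summed triplets. Without a batch term they were 7, 2, 5 and 1, within the 22 April batch 6, 1, 1 and 0, and within the 11 April batch 5, 1, 6 and 0. The 24 May batch, which holds triplets of only 2 groups and 1 stimulated library of the 30 in normal medium, gave 18 and 18 in the first 2 comparisons. The replicate block gave 7, 6, 5 and 3, but the titles link same-numbered libraries of different groups by the number only. The median correlation of their deviations from group means was 0.0934, and 18 of 36 pairs were over 0.1. For pairs of other numbers these values were -0.0297 and 114 of 297, so whether the numbers mark a pairing is not settled. Insulin in insulin-resistant medium gave 0 chains in each alternative run. DESeq2, its size factors in edgeR, averaged TMM factors and both filters kept the 5 counts within 1.5 times, and no chain ratio passed in any alternative. Leaving out 1 library or triplet gave 6 to 16 chains under insulin in normal medium (16 without stimulated replicates 1 to 3), 1 to 14 for the medium in untreated cells (3 without untreated replicate 6 in resistant medium, 1 without untreated replicates 7 to 9 there, 14 without untreated replicates 7 to 9 in normal medium), 4 to 16 for the medium in stimulated cells (16 without replicates 1 to 3 in resistant medium) and 2 to 11 for the interaction (2 without untreated replicates 7 to 9 in resistant medium, 11 without stimulated replicates 1 to 3 in normal medium). Log2 fold changes of named chains changed sign as follows. Under insulin in normal medium, COL9A3 stood at 0.028 and COL4A6 at 0.070 in all 36, COL9A3 at 0.014, COL4A5 at 0.027, COL4A6 at 0.044 and COL1A2 at 0.40 on the hepatocyte scale, COL9A3 at 0.013 and 0.020 and COL4A6 at 0.040 and 0.065 on that scale in 36 libraries and 12 triplets, and COL4A6 at 0.044 and COL14A1 at -1.60 in the 24 May batch. Over single triplets left out COL14A1 ran from -0.81 to 2.59 under insulin in normal medium, from -2.38 to 0.92 for the medium in stimulated cells and from -3.19 to 0.23 for the interaction, with the changed signs without stimulated replicates 7 to 9 in normal medium. For the medium in untreated cells, COL9A2 stood at 0.12, COL4A5 at 0.16, COL27A1 at 0.0061 and COL15A1 at -0.083 in all 36. On the hepatocyte scale in the 30, the 36 and the 12 triplets COL9A2 stood at 0.32, 0.32 and 0.32, COL4A5 at 0.38, 0.35 and 0.35 and COL27A1 at 0.27, 0.21 and 0.22. For the medium in stimulated cells, COL9A2 and COL4A6 stood at -0.21 and -0.15 in all 36 and at -0.12 and -0.061 in triplets scaled to stromal markers. For the interaction in all 36, COL9A2 stood at -0.34, COL2A1 at -0.080, COL4A5 at -0.36, COL27A1 at -0.34 and COL4A6 at -0.49, and COL27A1 stood at -4.47e-04 in triplets scaled to stromal markers. Of the values of named chains under alternatives, 504 kept direction and side of the threshold, 201 were no longer past it, 7 newly passed and 38 changed sign. The causes were not tested. COL2A1 was lower in resistant medium in both comparisons under every alternative run, and missed the threshold in triplets scaled to stromal markers, where it stood at -1.97 and -1.66. Class limits of 5% and 33% moved COL24A1 to hepatoma and COL6A1 to intermediate, and TMM scaling moved none. The fits scaled to hepatocyte markers on 36 libraries and on 12 triplets, those scaled to stromal markers on triplets, and the ratios within 1 batch were chosen after seeing the data. Depth limits the low chains, where 3 counts equal up to 0.113 CPM.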
